A study of Mus musculus with 10 samples.

Results

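Transforming growth factor-beta (TGF-beta) signaling was examined through 10 genes in kidneys of old mice that carry an active form of RagC in 1 allele. The genes are the ligands Tgfb1 and Tgfb2, the receptors Tgfbr1 and Tgfbr2, the signal transducers Smad2 and Smad3, the inhibitor Smad7, the latent binding protein Ltbp1 and the early targets Ccn1 and Ccn2. They were taken by symbol as a pathway list, and all 10 were present among the 13299 genes of the table and among the 13236 that passed the filter on low values. Whole kidneys of 5 Rragc S74N/+ mice, heterozygous for a knock-in that changes serine to asparagine at position 74 of RagC, were compared with kidneys of 5 Rragc +/+ mice, all labelled 1.5 years old and, per the study, of C57BL/6 strain. The knock-in was made by Cas9 editing of the endogenous gene, also carries silent changes, and is present in every tissue, so the data do not separate an effect in tubules from one in vessels or immune cells. RagC is a small GTPase that signals nutrient sufficiency to the kinase complex mTORC1. The labels do not say that each kidney came from a separate mouse, and p-values measure the spread between these samples only.

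TGF-beta is secreted in a latent form that is held in the matrix by LTBP proteins and released by integrins, thrombospondin and proteases. The active ligand joins the receptors TGFBR2 and TGFBR1, which phosphorylate SMAD2 and SMAD3, and these enter the nucleus with SMAD4 and act on genes for matrix, for CCN proteins and for SMAD7, an inhibitor that closes a feedback loop. The related bone morphogenetic proteins (BMPs) act through SMAD1 and SMAD5 on the ID genes. In kidney this pathway is best known for its part in fibrosis.

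Libraries were sequenced from the 3′ end of each mRNA, and values are normalized counts, that is reads divided by a size factor of each library. Depth ran from 4488493 to 5797251 reads in the 8 libraries whose reads could be recovered. Defining markers of the labelled tissue were present in both genotypes, with a mean of 18242 normalized counts of Slc34a1 and 5579 of Lrp2 (both proximal tubule) in Rragc +/+ kidneys. Of the marker lists of other cells, 3 of 8 fibroblast, 2 of 8 macrophage, 1 of 5 T cell and 3 of 7 injured tubule genes passed the threshold, all higher in Rragc S74N/+ kidneys, and 4 of 4 distal convoluted tubule genes passed, all lower. Among all tested genes 6.03% passed. Further, 1 gene each of 8 endothelial, 6 proximal tubule, 4 thick ascending limb and 5 collecting duct genes was lower. None of 5 B cell and plasma cell genes passed, and 3 had an unadjusted p under 0.05 (limma), against 25.4% of all tested genes. The log2 fold change was below 0 for 2 of 8 fibroblast, 2 of 8 macrophage, 0 of 5 T cell and 1 of 7 injured tubule genes. The injured tubule gene Havcr1 had 1.12, 4.16, 0, 6.99 and 8.95 normalized counts in Rragc +/+ kidneys, and entered through its higher Rragc S74N/+ values. In whole tissue, fewer cells of a type and less RNA per cell cannot be told apart. Transcripts of 4 Y-linked genes were detected in all 10 libraries.

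None of the 10 genes passed the threshold of an adjusted p under 0.05 (limma), against 6.03% of all tested genes. At an unadjusted p under 0.05 the count was 1 of 10 (10%), Smad7, against 25.4% of all tested genes. The count was also 0 with edgeR and with DESeq2 on the reads of 8 libraries, where 6.43% and 10.6% of all genes passed. Smad7 was also the only one of the 10 genes whose groups lay fully apart (10%, against 8.16% of all tested genes). The log2 fold change was above 0 for 6 and below 0 for 4 genes, with a median of 0.06, beside a median of -0.01 over all tested genes. The genes had between 45.4 (Ccn2) and 122 (Smad3) normalized counts on average, so that counting alone gave each library an error of 9.07% to 14.8% for these means.

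**Figure D1:**
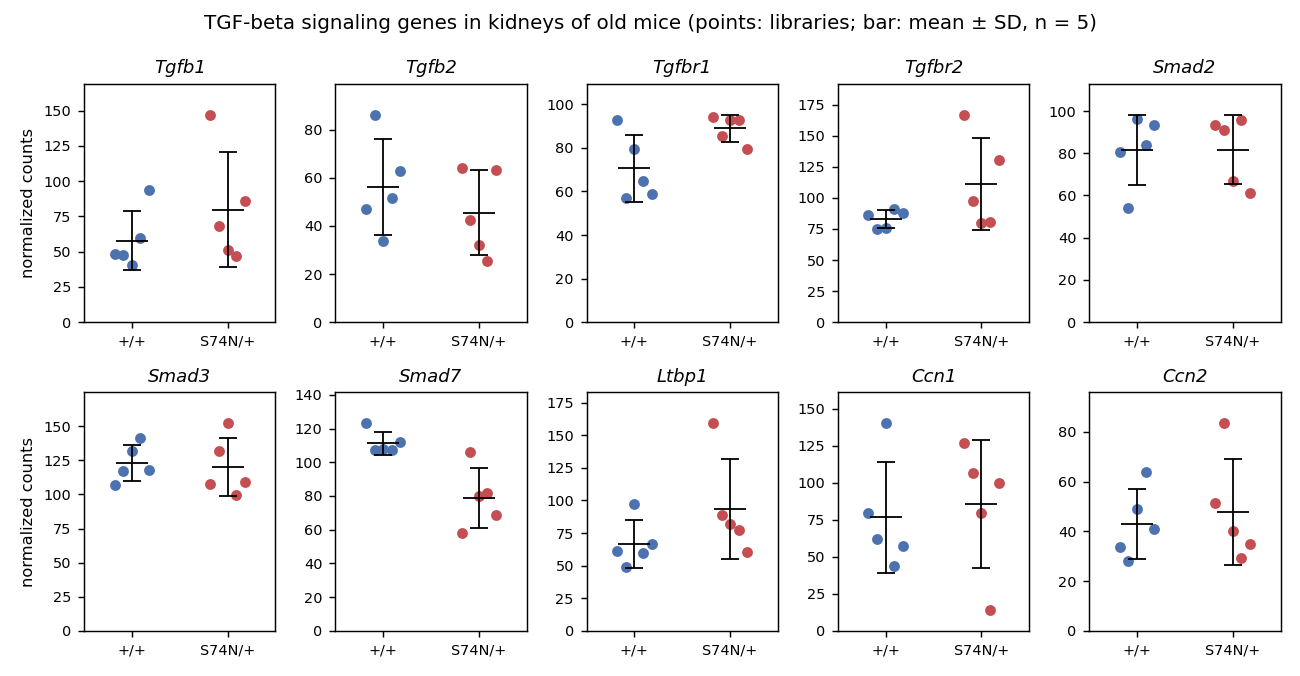
Normalized counts (vertical axis, from 0) of the 10 genes in each library of Rragc +/+ (blue) and Rragc S74N/+ (red) kidneys, with mean ± SD (n = 5). Only for Smad7 do the points of the groups not overlap, with 107 to 123 in Rragc +/+ and 57.8 to 106 in Rragc S74N/+ kidneys.

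Of the ligands, Tgfb1 encodes the main TGF-beta of injured kidney. It had 48.1, 47.9, 40.3, 59.4 and 93.5 normalized counts in Rragc +/+ kidneys and 147, 67.8, 51.0, 46.8 and 85.5 in Rragc S74N/+ kidneys. The groups overlapped, and the high values were Rragc S74N/+ replicate 1 and Rragc +/+ replicate 5. The mean was 57.8 ± 21.1 in Rragc +/+ and 79.7 ± 40.8 in Rragc S74N/+ kidneys (SD, n = 5 per group). The log2 fold change of 0.39 had a 95% confidence interval of -0.22 to 1.01 and did not pass (limma, adjusted p = 0.420). Without Rragc S74N/+ replicate 1 it was 0.14 (adjusted p = 0.778). The 8 libraries with recovered reads leave out the high Rragc +/+ replicate 5 and Rragc S74N/+ replicate 3, at 51.0. On these 8 the log2 fold change was 0.84 with edgeR and 0.83 with DESeq2 (adjusted p = 0.106 and 0.0767). Limma on the same 8 libraries gave 0.71 (adjusted p = 0.147). Tgfb2, a second ligand of the same receptors, had 47.0, 86.3, 33.6, 51.5 and 62.7 normalized counts in Rragc +/+ and 64.3, 42.6, 32.0, 25.5 and 63.2 in Rragc S74N/+ kidneys. The groups overlapped here too, and the log2 fold change was -0.32 with an interval of -0.93 to 0.29 (limma, adjusted p = 0.512).

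Ltbp1, the matrix protein that stores the latent ligand, had 61.5, 48.9, 97.0, 59.4 and 66.7 normalized counts in Rragc +/+ and 159, 89.2, 82.0, 77.4 and 60.2 in Rragc S74N/+ kidneys. In 4 of 5 Rragc S74N/+ kidneys it lay above the Rragc +/+ mean, but a single Rragc S74N/+ library lay above all Rragc +/+ libraries. Its log2 fold change of 0.44 had an interval of -0.07 to 0.95 (limma, adjusted p = 0.260). Without Rragc S74N/+ replicate 1 the log2 fold change was 0.23 (adjusted p = 0.524).

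The receptors were examined next. Tgfbr1, the signaling receptor kinase, had 92.9, 57.2, 79.7, 64.6 and 58.7 normalized counts in Rragc +/+ kidneys, and 94.2, 85.3, 93.0, 92.7 and 79.7 in Rragc S74N/+ kidneys. Rragc S74N/+ libraries were tightly grouped, with a spread of 7.04% of the mean, and all 5 lay above the Rragc +/+ mean of 70.6 ± 15.3 (SD, n = 5), yet 2 of 5 lay above every Rragc +/+ library. The log2 fold change was 0.35 ± 0.17 (SE), which did not pass (limma, unadjusted p = 0.0504, adjusted p = 0.197, exact permutation p = 0.0556 on the normalized counts). Tgfbr2, which binds the ligand first, had 86.1, 74.9, 75.8, 90.8 and 87.6 normalized counts in Rragc +/+ and 167, 97.9, 80.0, 80.5 and 130.2 in Rragc S74N/+ kidneys. It was high in Rragc S74N/+ replicates 1 and 5 and within the Rragc +/+ range in replicates 3 and 4. This gave a log2 fold change of 0.36 ± 0.20 (SE), with an interval of -0.06 to 0.78 (limma, adjusted p = 0.263). Leaving out Rragc S74N/+ replicate 1 lowered it to 0.20 (adjusted p = 0.524).

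Smad2 and Smad3, the transducers, had nearly equal group means. Smad2 had 81.6 ± 16.7 normalized counts in Rragc +/+ and 81.7 ± 16.2 in Rragc S74N/+ kidneys (SD, n = 5 per group), with values of 80.5, 54.1, 96.0, 83.8 and 93.5 against 93.3, 91.1, 67.0, 95.7 and 61.2. Smad3 had 107, 117, 132, 141 and 118 normalized counts in Rragc +/+ and 108, 132, 152, 99.8 and 109 in Rragc S74N/+ kidneys. For both genes each group held low and high libraries. The intervals of the log2 fold change, -0.40 to 0.41 for Smad2 and -0.36 to 0.27 for Smad3, leave room for changes of about that size (limma, adjusted p = 0.993 and 0.878). Counts of mRNA do not measure phosphorylation of these proteins.

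Smad7 encodes the inhibitory SMAD that blocks the receptor. It had 123, 107, 108, 107 and 112 normalized counts in Rragc +/+ kidneys and 57.8, 106, 80.0, 81.5 and 69.0 in Rragc S74N/+ kidneys. All 5 Rragc S74N/+ libraries lay below all Rragc +/+ libraries, with replicate 2 closest to them and replicate 1 lowest. The means were 112 ± 6.82 and 78.8 ± 17.8 normalized counts (SD, n = 5 per group). The log2 fold change was -0.52 ± 0.16 (SE), with an interval of -0.87 to -0.17, and an unadjusted p of 0.00573 that did not pass over all genes (limma, adjusted p = 0.0685). Permuting the genotypes of the 10 libraries, an exact test of this gene alone, gave p = 0.00794, the smallest value that 5 against 5 samples can give. Among all tested genes 2.58% passed the threshold in this direction.

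The gap between the groups for Smad7 was narrow. Replicate 2 of Rragc S74N/+ and the lowest Rragc +/+ library differed by far less than the counting error of 10.3%, and the spread of 6.11% among Rragc +/+ libraries was itself below that error. Without Rragc S74N/+ replicate 2 Smad7 passed (limma, log2 fold change -0.63, adjusted p = 0.0357), and in the other 9 fits that left out 1 library the adjusted p lay between 0.0800 and 0.142. The log2 fold change stayed between -0.63 and -0.42 in all 25 alternative fits.

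**Figure D2:**
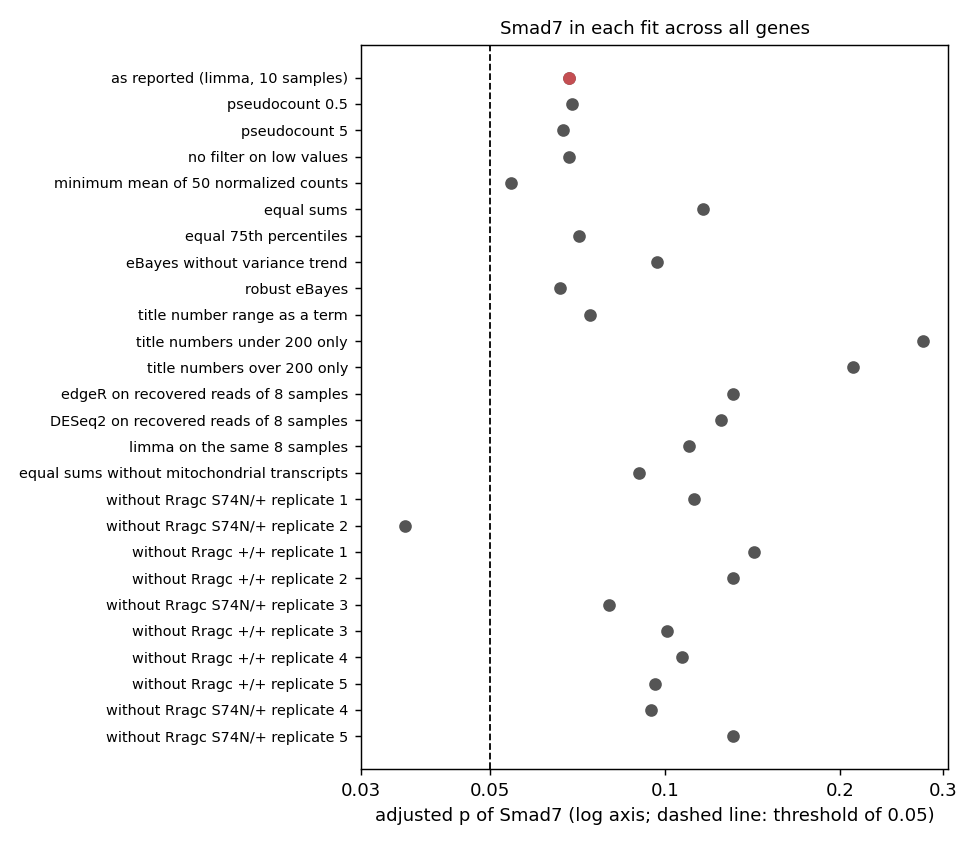
Adjusted p of Smad7 (horizontal log axis) in the reported limma fit (red) and in 25 alternative fits across all genes (grey), listed by name, with the threshold of 0.05 as a dashed line. Only the fit without Rragc S74N/+ replicate 2 lies below the threshold, at 0.0357.

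The early targets Ccn1 and Ccn2 encode secreted CCN matrix proteins, which TGF-beta and the Hippo effector YAP both induce. Ccn1 had 79.4, 62.4, 140.2, 43.7 and 57.7 normalized counts in Rragc +/+ and 127, 107, 80.0, 14.3 and 100.1 in Rragc S74N/+ kidneys. Its libraries spread by 49.2% of the mean in Rragc +/+ and 50.5% in Rragc S74N/+ kidneys, against a counting error of 11.1%. Its interval, -1.01 to 0.96, was the widest of the 10 genes (limma, log2 fold change -0.03, adjusted p = 0.979). Without the low Rragc S74N/+ replicate 4 the log2 fold change was 0.52 (adjusted p = 0.258). Ccn2 had 33.6, 28.1, 49.0, 63.8 and 40.8 normalized counts in Rragc +/+ and 51.3, 83.4, 40.0, 29.5 and 35.0 in Rragc S74N/+ kidneys. The groups overlapped throughout, with a log2 fold change of 0.11 and an interval of -0.49 to 0.71 (limma, adjusted p = 0.847).

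Libraries differed across several genes at once. Rragc S74N/+ replicate 1 had the highest value of all 10 libraries in Tgfb1, Tgfbr1, Tgfbr2 and Ltbp1 and the lowest in Smad7. Rragc +/+ replicate 2 was lowest in 5 genes, Tgfbr1, Tgfbr2, Smad2, Ltbp1 and Ccn2, and highest in Tgfb2. Rragc S74N/+ replicate 4 was lowest in Tgfb2, Smad3 and Ccn1. These 3 libraries had 4930328, 4807290 and 4759728 reads, within the range of the others.

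**Figure D3:**
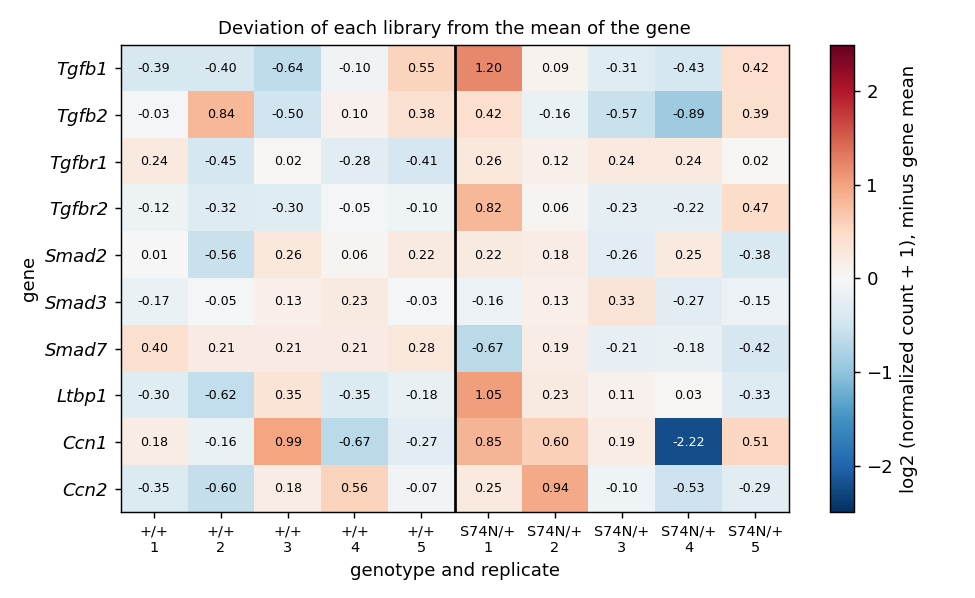
Deviation of each library (columns, by genotype and replicate) from the mean of each gene (rows), in log2 of the normalized count plus 1, in red above and in blue below the mean. Rragc S74N/+ replicate 1 stands at 1.20 for Tgfb1, 1.05 for Ltbp1 and -0.67 for Smad7, and Rragc S74N/+ replicate 4 at -2.22 for Ccn1.

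The wider pathway was then counted over 9 lists, which hold the 10 genes as well, with 118 genes in all, of which 101 were tested. The threshold was passed by 13 genes (12.9%, against 6.03% of all tested genes), of which 6 rose and 7 fell with the mutation. Because the 10 genes and these lists were picked with earlier results of the data known, their shares are no independent comparison with all genes. Among the 13, Grem1 and Ltbp2 passed the filter on low values only through their Rragc S74N/+ values. Scaling to equal library sums, under which the all-gene median shifted by 0.08, gave 16 genes. Of these calls 68.8% were higher, against 46.2% as deposited and 58.3% of the 12 calls obtained when mitochondrial transcripts were kept out of the sums. The count fell to 7 without Rragc +/+ replicate 1 or 2, and to 8 without Rragc +/+ replicate 4 or Rragc S74N/+ replicate 5.

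**Figure D4:**
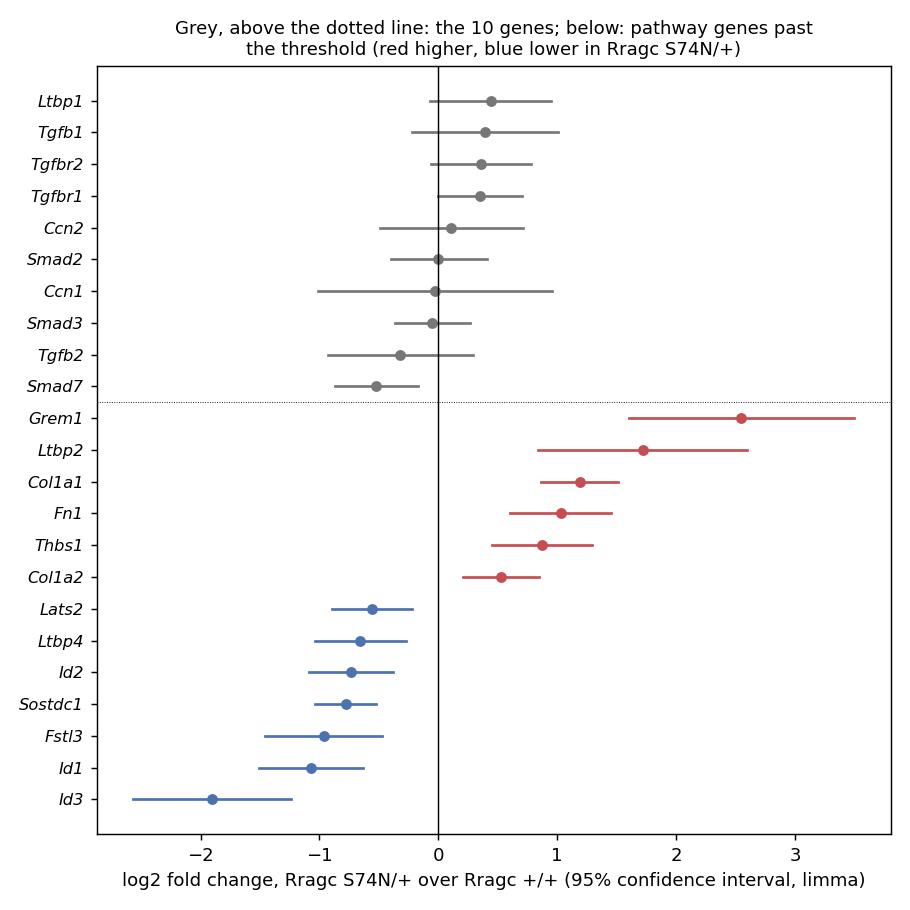
Log2 fold change of Rragc S74N/+ over Rragc +/+ kidneys (horizontal axis) with 95% confidence intervals from limma, for the 10 genes (grey) and for the 13 pathway genes past the threshold (red higher, blue lower). The 10 genes lie between -0.52 and 0.44, and the 13 pathway genes between -1.90 and 2.55.

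No ligand (0 of 10), receptor (0 of 12) or SMAD gene (0 of 7) passed, against 6.03% of all tested genes. An unadjusted p under 0.05 was found for 3, 1 and 2 of them (limma), against 25.4% of all tested genes. Gdf15, a stress-induced ligand of the family, had 191 ± 69.9 normalized counts in Rragc +/+ and 314 ± 94.7 in Rragc S74N/+ kidneys as mean ± SD of 5 kidneys each, which did not pass (limma adjusted p = 0.0760). It passed with equal sums, with edgeR, DESeq2 and limma on 8 libraries, and without Rragc S74N/+ replicate 3 or Rragc +/+ replicate 5. Bmpr1a, a BMP receptor, had 212 ± 26.8 and 272 ± 16.2 normalized counts with groups that did not overlap (limma adjusted p = 0.0771), and passed with equal sums and with DESeq2. Among the most abundant of these lists, Bmp4, Bmp7, Bmpr2, Eng, Smad4 and Smad5 had log2 fold changes between -0.29 and 0.31 that did not pass. Of these, Eng passed as lower without Rragc S74N/+ replicate 1, its highest library at 288 normalized counts, and among title numbers over 200.

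Of 13 genes for latency and activation, 2 rose and 1 fell (23.1% past the threshold, against 6.03% of all tested genes). Thbs1, thrombospondin-1, an activator of latent TGF-beta, had 94.0, 84.3, 111, 89.9 and 116 normalized counts in Rragc +/+ and from 134 to 314, with a median of 169, in Rragc S74N/+ kidneys. The groups did not overlap, and replicate 1 of Rragc S74N/+ was far above the rest of its group. Thbs1 rose by 0.87 ± 0.20 in log2 units (SE, limma, adjusted p = 0.0186), and the call was lost without Rragc +/+ replicate 1, 2 or 4 (adjusted p up to 0.0578). Ltbp2, a fibrillin-binding relative of Ltbp1, had 6.71, 9.36, 4.80, 3.49 and 3.98 normalized counts in Rragc +/+ and 50.4, 18.4, 13.0, 13.2 and 19.4 in Rragc S74N/+ kidneys. It was near the filter in Rragc +/+ kidneys and entered through its Rragc S74N/+ values. Ltbp2 rose by 1.72 ± 0.41 (SE, limma adjusted p = 0.0239), and its call was lost without Rragc S74N/+ replicate 1 or 5 or Rragc +/+ replicate 4.

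Ltbp4, a relative of Ltbp1 that binds latent TGF-beta, fell from 58.2, 86.3, 68.2, 73.4 and 70.6 normalized counts in Rragc +/+ to 36.4, 36.8, 53.0, 49.9 and 49.5 in Rragc S74N/+ kidneys. The groups did not overlap, and the log2 fold change was -0.66 (limma adjusted p = 0.0422). The call was lost in 9 of 10 fits that left out 1 library and with edgeR, while the log2 fold change stayed between -0.73 and -0.58 in the former and was -0.72 in the latter. Furin, which cleaves the precursor, and the integrin subunits Itgav and Itgb8, which release the ligand, did not pass, at log2 fold changes of 0.01, 0.30 and 0.07.

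Of 16 inhibitors, 1 rose and 2 fell (18.8% past the threshold, against 6.03% of all tested genes). All 3 encode secreted antagonists of BMPs or activins. Grem1, Gremlin-1, a BMP antagonist, was nearly absent in Rragc +/+ kidneys, with 1.12, 4.16, 1.92, 0.873 and 1.99 normalized counts, and had 20.5, 13.6, 12.0, 21.4 and 12.6 in Rragc S74N/+ kidneys. In the 4 libraries per genotype with recovered reads, this was 8 against 70 reads, a ratio of 8.59 with an exact 95% counting interval of 4.13 to 20.7 that covers counting error only. The limma log2 fold change was 2.55 ± 0.45 (SE, adjusted p = 0.00467), and it passed in each of the 10 fits that left out 1 library. All 5 Rragc +/+ values lay under the filter of 5 normalized counts, so Grem1 was tested only through the group in which it was high, as was Ltbp2, with 3 of 5 Rragc +/+ values under it.

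Sostdc1, a BMP and WNT antagonist, was abundant, with 992, 1001, 950.3, 1233 and 1012 normalized counts in Rragc +/+ kidneys, and fell to 583, 526, 738, 675 and 516 in Rragc S74N/+ kidneys. The groups lay far apart (log2 fold change -0.78 ± 0.12, SE, limma adjusted p = 0.00200). Sostdc1 is known from distal tubules, and the 4 distal convoluted tubule markers, which summed to 4477 to 5597 normalized counts in Rragc +/+ and 1365 to 2130 in Rragc S74N/+ kidneys, fell as well. Their part in the change of Sostdc1 was not tested. Fstl3, an activin antagonist, had 94.1 ± 26.1 normalized counts in Rragc +/+ and 48.4 ± 16.2 in Rragc S74N/+ kidneys (mean ± SD of 5 each) and fell by 0.96 on the log2 scale (limma adjusted p = 0.0254). Its groups overlapped, and the call was lost in 5 of 10 fits that left out 1 library, namely those without Rragc +/+ replicate 1, 2 or 3 or Rragc S74N/+ replicate 4 or 5. The intracellular inhibitors Pmepa1, Fkbp1a and Ppm1a did not pass.

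Of 24 tested targets, 12 had an unadjusted p under 0.05 (limma), against 25.4% of all tested genes. The threshold was passed by 7 (29.2%, against 6.03% of all tested genes). This list too was picked with earlier results known, so its share is no independent comparison. The 7 parted by kind. The 3 that fell are the ID genes, which encode inhibitors of helix-loop-helix transcription factors. Id3 had 126, 192, 110.4, 68.1 and 108 normalized counts in Rragc +/+ and 13.1, 30.0, 44.0, 46.8 and 29.1 in Rragc S74N/+ kidneys, with no overlap between the groups. Id3 fell by 1.90 ± 0.31 in log2 units (SE, limma, adjusted p = 0.00316) and passed in all 25 alternative fits.

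Id1 had 181, 129, 132, 102 and 108 normalized counts in Rragc +/+ and 42.0, 71.7, 67.0, 83.5 and 47.6 in Rragc S74N/+ kidneys (log2 fold change -1.07 ± 0.21, SE, limma adjusted p = 0.00879). Id2, far more abundant, had 6612, 5614, 3997, 4535 and 4360 against 1966, 3476, 3311, 3357 and 3044 normalized counts (log2 fold change -0.73 ± 0.17, SE, limma adjusted p = 0.0199). Neither gene had overlapping groups, and the call of Id2 was lost without Rragc +/+ replicate 1 or 2 (adjusted p up to 0.0635). Replicate 1 of Rragc S74N/+ was lowest in all 3 ID genes, as in Smad7. The ID genes are also known from endothelium, where 1 of 8 markers fell (Plvap, 272 ± 48.5 against 145 ± 43.6 normalized counts, limma adjusted p = 0.00879). Kdr, with 475 ± 48.0 against 343 ± 62.2 normalized counts and groups fully apart, did not pass (limma adjusted p = 0.0506). The log2 fold change was above 0 for 5 of the 8, among them Pecam1 (0.31), Emcn (0.30) and Cdh5 (0.26), and the median was 0.15. The summed markers ranged from 1861 to 2084 in Rragc +/+ and from 1675 to 2081 in Rragc S74N/+ kidneys. The part of endothelial RNA in the ID genes was not tested.

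The 4 targets that rose were Ltbp2 and 3 matrix genes. Fn1, fibronectin, had 43.6, 40.6, 43.2, 48.9 and 47.8 normalized counts in Rragc +/+ and 107, 89.2, 81.0, 61.1 and 139.9 in Rragc S74N/+ kidneys. No libraries overlapped, and the log2 fold change was 1.03 ± 0.20 (SE, limma adjusted p = 0.00896). Col1a2, a chain of collagen I, had 289, 409.9, 454, 327 and 376 against 546, 553, 461, 428 and 698 normalized counts, with overlap of 1 Rragc S74N/+ library. It rose by 0.53 ± 0.15 in log2 units (SE, limma, adjusted p = 0.0488). The call was lost in 6 of 10 fits that left out 1 library and with edgeR, although the log2 fold change stayed between 0.43 and 0.61 in the former and was 0.60 in the latter. Col1a1, the other chain, rose by 1.19 ± 0.15 (SE, limma adjusted p = 4.70e-04) and passed in each of them. The targets Col3a1 and Lox did not pass, at log2 fold changes of 0.70 and 1.24 (limma adjusted p = 0.0505 and 0.0567). Both passed with equal sums and with robust eBayes. Col3a1 also passed with a pseudocount of 5, a minimum mean of 50, equal 75th percentiles and equal sums without mitochondrial transcripts. It passed as well among title numbers over 200, and without Rragc S74N/+ replicate 1 or Rragc +/+ replicate 3, but not with edgeR or DESeq2. Lox also passed with edgeR, with DESeq2 and without Rragc S74N/+ replicate 3 or 4.

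Pdgfra, a fibroblast receptor, rose too, with 108 ± 28.9 against 196 ± 50.2 normalized counts (mean ± SD of 5 kidneys each, limma adjusted p = 0.0183). The fibroblast markers Pdgfrb, Dcn and Lum did not pass, at log2 fold changes of -0.13, 0.28 and 0.23 (limma adjusted p = 0.788, 0.666 and 0.847). The 8 fibroblast and myofibroblast markers, collagens included, summed to 968 to 1738 normalized counts in Rragc +/+ and 1475 to 2315 in Rragc S74N/+ kidneys, and the part of more fibroblast RNA in the matrix genes was not tested. The contractile genes Tagln and Acta2, which mark myofibroblasts and smooth muscle, did not pass, at log2 fold changes of 0.50 and -0.37, nor did Pmepa1, a direct SMAD target, at 0.18 (limma adjusted p = 0.139, 0.294 and 0.281). Of these, Tagln passed with DESeq2.

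**Figure D5:**
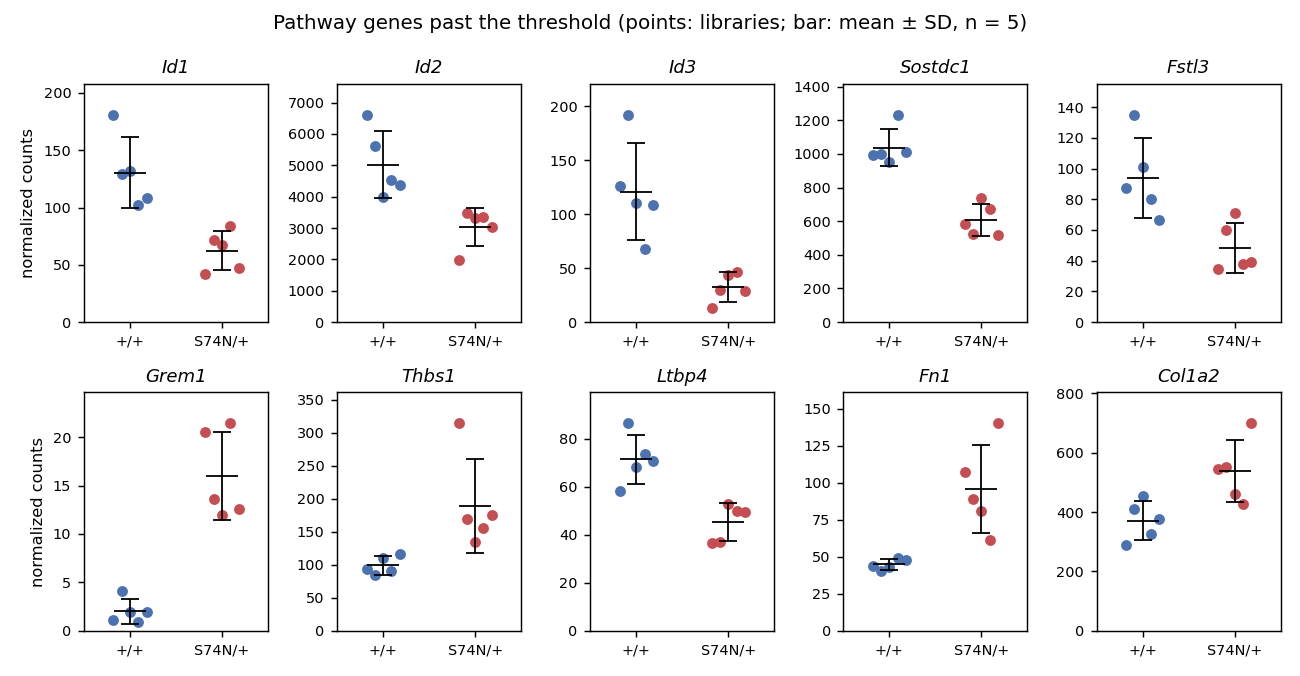
Normalized counts (vertical axis, from 0) of 10 of the 13 pathway genes past the threshold in each library of Rragc +/+ (blue) and Rragc S74N/+ (red) kidneys, with mean ± SD (n = 5). Groups do not overlap for Id1, Id2, Id3, Sostdc1, Grem1, Thbs1, Ltbp4 and Fn1, and overlap for Fstl3 and Col1a2.

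Since YAP also drives Ccn1 and Ccn2, 15 Hippo pathway genes and TEAD targets were counted. A single gene passed (6.67%, against 6.03% of all tested genes). An unadjusted p under 0.05 was found for 4 (limma), against 25.4% of all tested genes. The gene that passed was Lats2, a kinase that restrains YAP. It had 104, 104, 109, 110.0 and 110.4 normalized counts in Rragc +/+ and 53.2, 82.4, 86.0, 81.5 and 66.1 in Rragc S74N/+ kidneys (log2 fold change -0.56 ± 0.16, SE, limma adjusted p = 0.0475). The groups did not overlap, the Rragc +/+ spread of 3.04% lay below the counting error of 10.5%, and the call was lost in 9 of 10 fits that left out 1 library. The effector Wwtr1 and its partner Tead1 did not pass, at log2 fold changes of -0.22 and 0.01. None of 12 immediate early genes, a class to which Ccn1 also belongs, passed. Among these 12, 4 had an unadjusted p under 0.05 (limma), against 25.4% of all tested genes. Of the 4, Dusp1 passed with edgeR, DESeq2 and limma on 8 libraries and without Rragc S74N/+ replicate 3 or Rragc +/+ replicate 5, and Klf6 with equal sums and with DESeq2.

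Stretches of promoter are shown for a member and a called gene of each kind, to place motifs of the SMAD and TEAD factors beside the values above. They are the 250 bases before an annotated RefSeq start (GRCm38.p6, a build other than the GRCm39 of the counts), with the motif in capitals. For Ltbp1 and Col1a2 the capitals mark CAGACAG, a SMAD motif, read on either strand, and for Ccn1 and Id3 CATTCC, the core of the TEAD motif, read on either strand.
Ltbp1, chr17:75178531-75178780, plus strand: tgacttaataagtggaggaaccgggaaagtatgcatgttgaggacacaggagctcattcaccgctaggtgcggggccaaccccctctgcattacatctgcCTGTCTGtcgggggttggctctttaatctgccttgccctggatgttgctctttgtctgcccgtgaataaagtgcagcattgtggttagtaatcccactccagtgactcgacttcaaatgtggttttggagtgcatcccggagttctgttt
Ccn1, chr3:145649986-145650235, minus strand: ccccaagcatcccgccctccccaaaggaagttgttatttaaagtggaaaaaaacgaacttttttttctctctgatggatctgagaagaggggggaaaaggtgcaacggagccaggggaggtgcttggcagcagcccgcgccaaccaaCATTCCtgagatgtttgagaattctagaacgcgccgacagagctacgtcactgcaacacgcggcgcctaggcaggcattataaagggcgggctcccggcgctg
Col1a2, chr6:4505368-4505617, plus strand: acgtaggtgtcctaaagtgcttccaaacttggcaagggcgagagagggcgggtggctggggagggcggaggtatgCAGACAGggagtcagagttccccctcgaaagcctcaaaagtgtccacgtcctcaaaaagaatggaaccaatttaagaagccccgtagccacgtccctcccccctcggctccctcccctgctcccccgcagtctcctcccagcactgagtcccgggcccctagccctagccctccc
Id3, chr4:136143572-136143821, plus strand: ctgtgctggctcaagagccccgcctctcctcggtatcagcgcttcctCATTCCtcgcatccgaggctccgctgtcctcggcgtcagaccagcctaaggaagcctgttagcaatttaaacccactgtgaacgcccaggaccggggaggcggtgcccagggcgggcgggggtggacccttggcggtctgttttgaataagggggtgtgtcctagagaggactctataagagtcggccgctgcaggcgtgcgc

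Counted from the start, with -1 as the base before it, the motif lies at -150 to -144 in Ltbp1, -103 to -98 in Ccn1, -175 to -169 in Col1a2 and -203 to -198 in Id3. Ltbp1 has another annotated start, whose window lacks CAGACAG, and which start is used in kidney was not examined. Of the 10 genes, 7 had windows, 9 in all, of which 3 hold CAGACAG (in Tgfb2, Tgfbr1 and Ltbp1) and 1 holds CATTCC (Ccn1). Of the 13 called genes, 8 had 11 windows, of which 2 hold CAGACAG (Fstl3 and Col1a2) and 1 holds CATTCC (Id3). A GC element of BMP-responsive genes, GGCGCC, is in 2 of the 9 windows (Tgfbr1 and Ccn1) and 5 of the 11 (2 of Ltbp4, and 1 each of Grem1, Id2 and Lats2). The Id3 window lacks it, and Id1 had no window. Among all 32851 windows of the table, 6.27% hold CAGACAG, 12.6% CATTCC and 9.59% GGCGCC, each counted on both strands. These matches describe the sequence and are no evidence of binding.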

How the data were processed

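QuantSeq 3′ mRNA libraries of whole kidney from 5 Rragc S74N/+ and 5 Rragc +/+ samples were analysed, and groups were taken from the genotype in the labels. The authors aligned reads with TopHat2 2.0.10 (Bowtie 1.0.0, SAMtools 0.1.19) to GRCm39, assigned them to GENCODE genes with HTSeq 0.6.1 (sense strand), and divided them by a size factor of each sample (DESeq2 is named in the submitters' processing notes). The deposited values are thus a signal of normalized counts, not raw counts, and the lowest gene mean in the table is 4.37. A gene entered with at least 5 normalized counts in at least 5 samples, and 63 genes were removed. Log2(normalized count + 1) was fitted with limma 3.58.1 (R 4.3.3), eBayes with a variance trend, genotype as the only term, and Benjamini-Hochberg adjustment over 13236 genes, two-sided, at 0.05. Fold changes on this scale understate those of low genes. The study's own contrast used a count model. Whole reads were recovered in 8 columns by dividing by the smallest value, with 100% of values within 0.01 of a whole read, and entered edgeR 4.0.16 and DESeq2 1.42.0 as alternatives. The steps of Rragc +/+ replicate 5 and Rragc S74N/+ replicate 3 were too close to 1 for that test, so these 2 samples entered no count model. Single genes were also tested by an exact two-sided permutation of the 252 allocations. The fit was tested on counts drawn with known changes.

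The named genes are the 10 members, pathway genes past the threshold and up to 3 further genes of highest mean per list. Marker genes are named only for the level of their cell type, and the markers of 1 further cell type are not reported here. Members and lists were chosen with earlier results of these data known. Replicates were numbered by order of deposit. Promoter windows came from RefSeq (GRCm38.p6), and Smad2, Smad7 and Ccn2 had none here.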

Additional observations from a re-analysis of the deposited data

Results flagged for a closer look

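Over the 10 genes and the 13 called pathway genes, 46 groups of 5 libraries were searched for a value standing apart (Dixon's criterion). There were 4 such values, where about 2.30 arise by chance (1 in 20 groups). In Rragc S74N/+ replicate 1, Ltbp2 stood at 50.4 normalized counts while its group otherwise ranged from 13.0 to 19.4. Thbs1 stood at 314 in the same library, with a group median of 169. Id2 stood at 1966 there, below the 3044 to 3476 of its group. In each case this was the library farthest from the Rragc +/+ group. Rragc +/+ replicate 4 had 1233 normalized counts of Sostdc1, against 950.3 to 1012 in the rest of its group, and so was the Rragc +/+ library farthest from the Rragc S74N/+ group. None of the 10 genes was found by this search. The cause of these 4 values was not tested.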

How the results depend on the processing

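No paired analysis was possible because the labels carry no replicate numbers. With the range of title numbers as a term, 11 of the 13 pathway calls stood, and Col1a2 (adjusted p = 0.0546) and Lats2 (0.0519) did not pass. Over 25 alternative fits, the 10 genes gave 249 values, of which 1 passed the threshold (Smad7 without Rragc S74N/+ replicate 2), and leaving out 1 library gave 0 to 1 members past it. Among these values, the direction differed from the report in 22 values, all in genes that did not pass. Among title numbers over 200 (2 against 2 libraries) Tgfb1 was -0.23, Smad2 -0.21 and Ccn2 -0.65, and among those under 200 (3 against 3) Smad3 was 0.13 and Ccn1 0.21. Equal sums gave Smad3 0.03 and Ccn1 0.05. Ccn1 was 0.01 with equal sums without mitochondrial transcripts, 0.00 with a pseudocount of 5, 0.11 with edgeR and 0.09 with DESeq2. The ratio of means in the permutation test, which is not among the 249 values, gave 0.16 for Ccn1. Leaving out 1 library gave -0.13 to 0.10 for Smad2, -0.14 to 0.01 for Smad3, -0.24 to 0.52 for Ccn1 and -0.11 to 0.26 for Ccn2. Smad7 was -0.51 and -0.55 within the lower and upper title numbers, which the labels do not call batches.

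Pathway genes past the threshold numbered 7 without the variance trend, 20 with DESeq2 (13 of them among the 13 reported), 1 among title numbers under 200, 8 among those over 200, and 7 to 17 when 1 library was left out. Over all genes the count was 391 without the trend, 1402 with DESeq2, 46 among title numbers under 200, and 311 to 902 when 1 library was left out, against 798. It was 368, 311, 383 and 371 without Rragc +/+ replicate 1, 2 or 4 or Rragc S74N/+ replicate 5. Fewer samples entered within title numbers, and the cause of the other shifts was not tested. Of the 13 pathway calls, 6 (Grem1, Sostdc1, Id1, Id3, Col1a1 and Fn1) were kept in all 10 fits that left out 1 library. Limma on the 8 libraries of the count models and sums without mitochondrial transcripts were added after the data were seen.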
